A study of Mus musculus with 8 samples.

Results

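The genes described are 7 members of the RAS, RAF, MEK and ERK cascade: Hras, Nras, Araf, Braf, Map2k1, Map2k2 and Mapk3. They were taken from the deposited gene table by symbol, and all 7 were found among its 24909 entries. Each of the 7 also passed the filter on low counts, which left 12879 genes to test.

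The study sequenced RNA of ASZ001 cells, a mouse basal cell carcinoma line, in 8 libraries, with 2 in each of 4 groups. Cells carrying a doxycycline-inducible c-FOS vector received doxycycline for 24 h and then, for 6 h, afatinib at 5 µM, UO126 at 10 µM or the vehicle DMSO. The remaining group carried the empty inducible vector and received doxycycline for 24 h, and its labels name no vehicle. All groups therefore share the cell line, the vector system and doxycycline. Vector expression depends on doxycycline and not on a skin promoter, and the c-Fos comparison sets induced c-Fos together with DMSO against the empty vector, so that the vehicle and c-Fos cannot be told apart. Afatinib is an inhibitor of the EGFR family of receptor kinases, and UO126 inhibits the MEK kinases. Nothing in the labels states that replicate libraries were grown as separate cultures. The p-values therefore reflect the spread among these libraries alone, and that spread could be technical.

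RAS proteins are small GTPases at the inner face of the plasma membrane that switch on when growth factor receptors recruit exchange factors. Active RAS brings RAF kinases to the membrane, RAF phosphorylates MEK, and MEK phosphorylates ERK, which enters the nucleus and raises transcription of immediate-early genes, Fos among them. In skin the cascade runs below EGFR and drives keratinocyte proliferation, and activated Hras starts squamous tumours in mouse skin. The kinases are controlled mainly by phosphorylation, which RNA sequencing does not measure, so the values below are mRNA levels and not pathway activity.

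Deposited totals ran between 17901974 and 23126048 counts per library. Library-scaled counts (CPM, relative to the TMM-scaled library total) of Fos were 1107 and 1081 with afatinib, 813 and 875 with UO126 and 1163 and 1120 with DMSO, against 40.6 and 50.5 in empty-vector cells, and the c-Fos libraries did not overlap the empty-vector ones. Of 8 keratinocyte markers, Krt5, Krt14, Trp63, Epcam and Cdh1 were high in every library. Krt15 had 7.84 to 21.5 CPM, Krt8 had only 0.146 to 0.893 CPM and Krt18 reached at most 1 count. The summed level of the 8 markers was 14833 to 15119 CPM with afatinib and 17995 to 18832 CPM with UO126. It was 16390 to 17105 CPM with DMSO and 14802 to 14812 CPM in the empty vector. The fibroblast markers summed to 4.76 to 10.6 CPM, with Lum and Thy1 at 0, and the leukocyte markers to 5.39 to 9.32 CPM, with Tyrobp at 0. Endothelial markers summed to 55.7 to 71.8 CPM, nearly all of it Pecam1, with Kdr at 0, and melanocyte markers to 32.0 to 53.9 CPM, nearly all of it Mitf, with Tyr at 0. The ribosomal RNA precursor Rn45s took 3.87% and 2.57% of the counts with afatinib, 1.62% and 3.55% with UO126, 3.45% and 2.19% with DMSO and 4.08% and 3.34% in the empty vector. In bulk RNA, fewer cells of a type and less RNA per cell cannot be told apart.

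Promoters are shown for the 4 members whose mRNA was higher in DMSO-treated c-Fos cells than in empty-vector cells, because c-Fos acts as part of the AP-1 transcription factor. Each is the 250 bases before the gene's start from RefSeq on GRCm38.p6, read 5′ to 3′ on the gene's strand, and capitals mark GGGCGG, the GC box bound by Sp1-type factors, on either strand. The windows are chr7:141194005-141194254 on the minus strand for Hras, chr3:103058035-103058284 on the plus strand for Nras, chr9:64253606-64253855 on the minus strand for Map2k1 and chr10:81105665-81105914 on the plus strand for Map2k2.
Hras: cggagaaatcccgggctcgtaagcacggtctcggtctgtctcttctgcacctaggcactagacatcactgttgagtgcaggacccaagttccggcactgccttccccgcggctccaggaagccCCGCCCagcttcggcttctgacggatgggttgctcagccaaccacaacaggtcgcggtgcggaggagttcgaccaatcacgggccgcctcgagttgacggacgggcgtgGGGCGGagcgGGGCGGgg
Nras: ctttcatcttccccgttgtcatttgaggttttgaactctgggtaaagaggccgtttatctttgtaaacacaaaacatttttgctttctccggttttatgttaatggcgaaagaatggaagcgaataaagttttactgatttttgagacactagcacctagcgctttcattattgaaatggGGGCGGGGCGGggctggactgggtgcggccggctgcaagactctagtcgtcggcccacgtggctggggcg
Map2k1: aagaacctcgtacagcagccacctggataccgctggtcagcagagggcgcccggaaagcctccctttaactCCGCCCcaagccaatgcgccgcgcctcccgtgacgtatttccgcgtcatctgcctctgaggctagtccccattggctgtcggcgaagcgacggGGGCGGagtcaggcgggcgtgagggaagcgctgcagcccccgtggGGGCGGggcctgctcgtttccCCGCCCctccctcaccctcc
Map2k2: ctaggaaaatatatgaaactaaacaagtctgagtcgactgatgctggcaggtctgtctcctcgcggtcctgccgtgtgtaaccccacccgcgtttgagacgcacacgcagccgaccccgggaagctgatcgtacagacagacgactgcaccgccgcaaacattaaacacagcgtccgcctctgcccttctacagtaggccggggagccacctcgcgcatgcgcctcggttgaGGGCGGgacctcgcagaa

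The window of Hras held 3 GC boxes, that of Nras held 2 that share a base, that of Map2k1 held 4 and that of Map2k2 held 1. Braf had 1 and Araf had 0, so 5 of the 6 members with a sequence in the table held the motif, against 32.7% of 32851 mouse promoters. The GC content was 65.6% for Hras, 48.4% for Nras, 51.2% for Araf, 62.0% for Braf, 68.4% for Map2k1 and 59.6% for Map2k2. Its median over all promoters was 52.4%. The motif consists of G and C only, and promoters of like GC content were not compared. The AP-1 motif TGANTCA was in 0 of these 6 windows, against 6.75% of all promoters. The related CREB and ATF motif TGACGTCA occurred 2 times in Braf, in a window at chr6:39725464-39725713 on the minus strand, and in none of the other 5, while 1.55% of all promoters held it. These are matches of letters in a short window and not measured binding sites. Mapk3 had no match in the promoter table.

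The cascade genes were expressed at different levels, and their order was the same in all 4 groups. Per kilobase of deposited transcript length, Map2k2 was highest, with 84.4 ± 7.16 CPM per kb with afatinib, 80.6 ± 8.5 with UO126, 87.3 ± 0.479 with DMSO and 74.6 ± 4.71 in the empty vector (SD, n = 2 each, as for every SD below). Hras followed, with 69.0 ± 4.61 CPM per kb with afatinib, 68.8 ± 3.17 with UO126, 71.4 ± 1.41 with DMSO and 59.3 ± 0.581 in the empty vector. Nras came next at 51.8 ± 2.60, 54.6 ± 4.12, 56.8 ± 0.136 and 45.0 ± 0.285 CPM per kb in the same order of groups. Below it stood Mapk3 with group means between 24.8 and 34.7 CPM per kb, Map2k1 between 21.6 and 25.7, Araf between 14.6 and 16.9 and Braf between 7.66 and 8.78. Within each group the libraries of neighbouring genes in this order did not overlap. The table has 1 length per gene, so a level per kb assumes that length for every transcript of the gene.

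**Figure D1:**
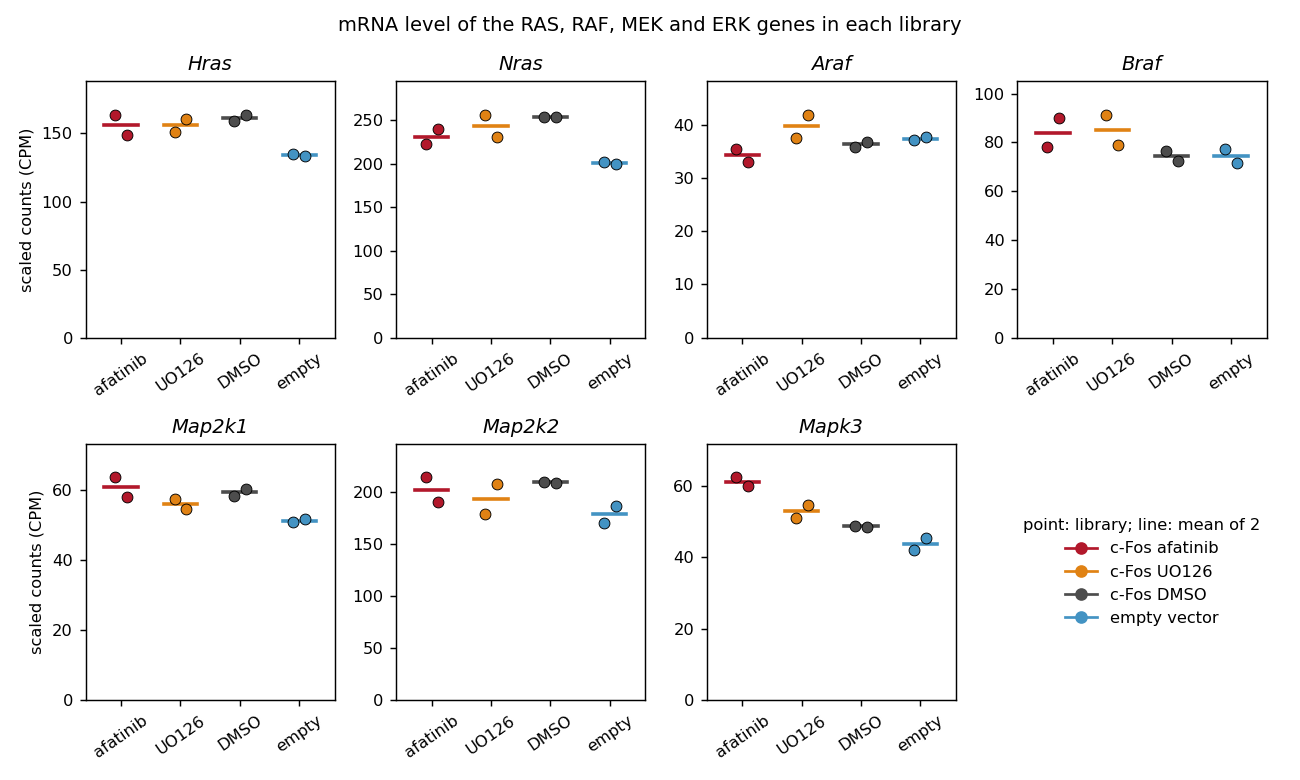
Scaled counts in CPM (vertical axes, each starting at 0) of the 7 genes in each library (points), with the mean of the 2 libraries (line), for afatinib, UO126 and DMSO in c-Fos cells and for the empty vector. Hras, Nras, Map2k1 and Mapk3 libraries of every c-Fos group sit above both empty-vector libraries. Mapk3 is highest with afatinib at 62.4 and 59.9 CPM.

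With c-Fos induction, 4 of the 7 genes rose and 0 fell. These were both RAS genes and both MEK genes, each by 16.0% to 26.4%. Over all tested genes 21.5% were higher and 20.7% lower in DMSO-treated c-Fos cells than in empty-vector cells by edgeR's quasi-likelihood test at an adjusted p under 0.05. The median log2 fold change of the 7 genes was 0.21, against -0.0052 over all genes. The median absolute log2 fold change was 0.24 over all tested genes and 0.46 over the called genes. In absolute size the 4 changes exceeded those of 46.2% (Map2k1) to 63.6% (Nras) of tested genes.

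With afatinib, 1 of the 7 genes rose against DMSO and 0 fell. It was Mapk3, the gene of ERK1, and its libraries lay above all other libraries of the study. Over all genes 21.2% were higher and 21.5% lower with afatinib. The median log2 fold change of the 7 genes was -0.049, against -0.00028 over all genes.

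With UO126, 0 of the 7 genes passed the edgeR test against DMSO in either direction, against 13.9% of all genes higher and 14.7% lower. Before adjustment 1 member, Braf, had p under 0.05 in edgeR's fit, and the DESeq2 Wald test called 0 as well. The median log2 fold change was -0.052, against 0.0021 over all genes. The 95% intervals of single genes reached from -0.29 for Map2k2 to 0.39 for Braf. Of all groups, UO126 had the widest differences in counts between its libraries over all genes. Their chi-square per degree of freedom was 25.1, against 9.17 for afatinib, 8.60 for DMSO and 4.85 for the empty vector. The fit used a spread per gene that all groups share.

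Both inhibitor comparisons share the DMSO libraries, and the c-Fos comparison uses these libraries too, so the 3 sets of values are not independent of each other.

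**Figure D2:**
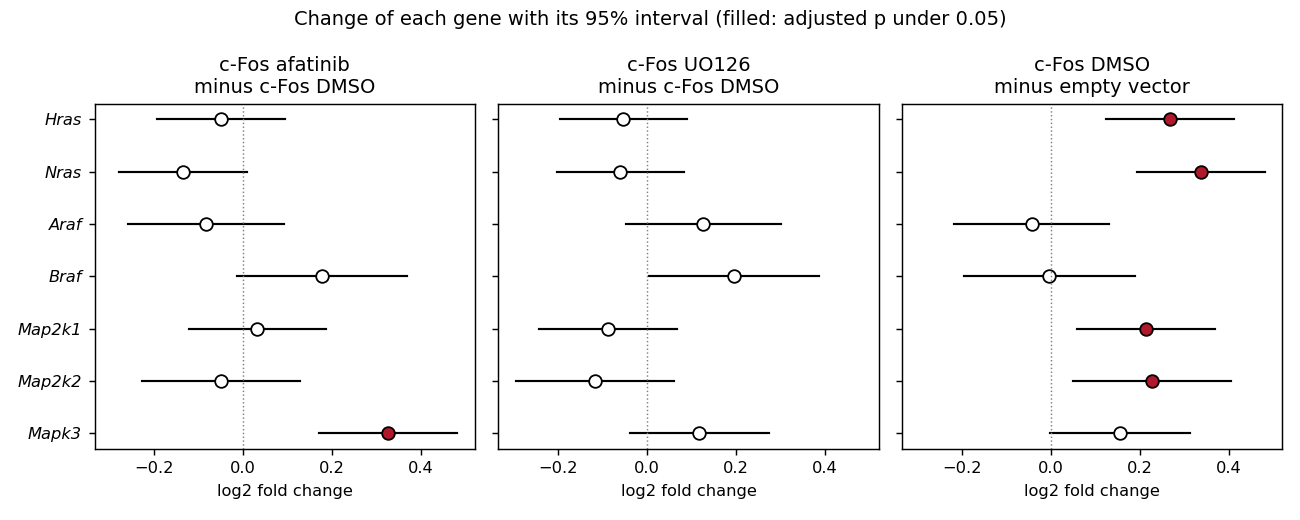
Log2 fold change of each gene (point) with its 95% interval (line) for afatinib minus DMSO, UO126 minus DMSO and c-Fos DMSO minus empty vector. Filled points have an edgeR adjusted p under 0.05: Mapk3 in the afatinib panel at 0.33, and Hras, Nras, Map2k1 and Map2k2 in the c-Fos panel between 0.21 and 0.34.

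Hras encodes the RAS protein most often activated in mouse skin tumours. It had 164 and 149 CPM with afatinib, 151 and 161 CPM with UO126 and 159 and 164 CPM with DMSO, against 135 and 133 CPM in the empty vector. All 6 c-Fos libraries lay above both empty-vector libraries, while the 3 c-Fos groups overlapped each other. Hras was higher by 0.27 ± 0.067 on the log2 scale in DMSO-treated c-Fos cells than in empty-vector cells (SE, as for every log2 fold change below, edgeR adjusted p = 0.0057), and the call was lost without DMSO replicate 2 (0.25, adjusted p = 0.051). Against DMSO its log2 fold change was -0.049 with afatinib (95% interval -0.19 to 0.094) and -0.052 with UO126 (-0.20 to 0.091), neither called.

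Nras encodes a close relative of Hras that is best known as an oncogene in melanoma. Its levels were 223 and 239 CPM with afatinib, 256 and 230 CPM with UO126 and 253 and 254 CPM with DMSO, against 202 and 200 CPM in the empty vector. The DMSO libraries were nearly equal, both afatinib libraries lay below them, and the UO126 libraries spanned them. Nras had the largest change of the 7 genes with c-Fos, a rise of 0.34 ± 0.067 (edgeR adjusted p = 0.0012), and this call was made in each of the 19 alternative analyses. With afatinib it stood at -0.13 ± 0.066 against DMSO (edgeR adjusted p = 0.12, 95% interval -0.28 to 0.0087), and with UO126 at -0.059 (-0.20 to 0.084). An analysis with offsets for transcript length, added after the data were seen, gave -0.20 with afatinib and passed the test (edgeR adjusted p = 0.012).

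The coding sequences of Hras and Nras, from GENCODE M21, were 75.1% identical over 570 aligned bases, and their longest identical run was 23 bases. The log2 ratio of Hras to Nras was -0.45 and -0.68 with afatinib, -0.77 and -0.52 with UO126 and -0.67 and -0.63 with DMSO, against -0.58 in both empty-vector libraries. The afatinib and UO126 groups spread more widely than the difference between any group means. The ratios are given as a description, with no test.

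Araf and Braf encode the kinases that RAS activates, and Braf is the stronger MEK activator of the pair. Araf, whose exons overlap those of Syn1 on the other strand, had 35.5 and 33.0 CPM with afatinib, 37.4 and 41.9 CPM with UO126 and 35.8 and 36.8 CPM with DMSO, against 37.1 and 37.7 CPM in the empty vector. These groups lay close together, with UO126 above DMSO and afatinib below it, without overlap. None of these differences was called: its log2 fold change was -0.083 with afatinib (95% interval -0.26 to 0.093), 0.13 with UO126 (-0.046 to 0.30) and -0.042 with c-Fos (-0.22 to 0.13).

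Braf, whose exons overlap those of Ndufb2 on the other strand, had 78.1 and 90.0 CPM with afatinib, 91.4 and 78.9 CPM with UO126 and 76.4 and 72.3 CPM with DMSO, against 77.1 and 71.8 CPM in the empty vector. All 4 inhibitor libraries were above all 4 others, but the 2 libraries of each inhibitor lay further apart than the means of that inhibitor and DMSO. The log2 fold change was 0.18 ± 0.089 with afatinib (edgeR adjusted p = 0.12) and 0.20 ± 0.088 with UO126 (edgeR adjusted p = 0.11), and -0.0029 ± 0.089 with c-Fos (edgeR adjusted p = 0.98). The afatinib value was called without afatinib replicate 1 (0.30, adjusted p = 0.038), without UO126 replicate 1 (0.20, adjusted p = 0.023) or without UO126 replicate 2 (0.18, adjusted p = 0.040), and the UO126 value without UO126 replicate 2 (0.30, adjusted p = 0.011). The library kit does not mark strand, so reads of Braf and Ndufb2, and of Araf and Syn1, cannot be told apart where they overlap.

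Braf has the longest deposited transcript of the 7 genes, 9703 bases, and fold changes moved with length over all genes. Among the 4293 longest genes the median log2 fold change with afatinib was 0.11, against -0.11 among the 4293 shortest, and with UO126 the medians were 0.063 and -0.070. With offsets for transcript length the change of Braf with afatinib was -0.017 (edgeR adjusted p = 0.87). The same offsets moved its change with c-Fos to 0.14 (edgeR adjusted p = 0.13), and both comparisons use the DMSO libraries. Its change for UO126 minus DMSO was at lowest 0.086 over the 19 alternatives, which include these offsets. The Araf and Braf coding sequences were 65.1% identical, with a longest shared run of 17 bases. Their log2 ratio, Araf to Braf, averaged -1.29 with afatinib, -1.10 with UO126, -1.03 with DMSO and -0.99 in the empty vector, and the libraries of the c-Fos groups overlapped with those of the empty vector except for afatinib.

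Map2k1 and Map2k2 encode MEK1 and MEK2, the kinases that UO126 inhibits. A run of 56 bases is identical in both coding sequences, at coding bases 391 to 446 of Map2k1 and 403 to 458 of Map2k2. It is shown because a read that lies inside it does not tell the genes apart.
Shared run of Map2k1 and Map2k2: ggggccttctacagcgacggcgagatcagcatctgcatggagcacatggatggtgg
Over 1178 aligned coding bases the pair was 78.3% identical.

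Map2k1 stood at 63.8 and 58.0 CPM with afatinib, 57.5 and 54.6 CPM with UO126 and 58.5 and 60.5 CPM with DMSO, against 50.9 and 51.7 CPM in the empty vector. Both empty-vector libraries lay below all 6 others, and afatinib overlapped DMSO. Map2k2 stood at 214 and 190 CPM with afatinib, 178 and 207 CPM with UO126 and 210 and 208 CPM with DMSO, against 170 and 186 CPM in the empty vector. Here DMSO lay above the empty vector and both UO126 libraries lay below DMSO, while UO126 and the empty vector overlapped.

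In DMSO-treated c-Fos cells against empty-vector cells, Map2k1 rose by 0.21 ± 0.072 (edgeR adjusted p = 0.029) and Map2k2 rose by 0.23 ± 0.082 (edgeR adjusted p = 0.040). For each of them the call was made in 14 of 19 alternatives. The adjusted p of Map2k1 was 0.097 and 0.093 with empty-vector replicate 1 or 2 left out, and 0.15 without DMSO replicate 2. That of Map2k2 was 0.20 when empty-vector replicate 1 was left out, 0.099 without DMSO replicate 1 and 0.12 without DMSO replicate 2. With any 1 library left out, the log2 fold change was 0.19 to 0.26 for Map2k1 and 0.19 to 0.29 for Map2k2.

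With the inhibitors neither MEK gene was called. Map2k1 differed from DMSO by 0.033 with afatinib (95% interval -0.12 to 0.19) and by -0.087 with UO126 (-0.24 to 0.068). Map2k2 differed by -0.050 with afatinib (-0.23 to 0.13) and by -0.12 with UO126 (-0.29 to 0.061), and the last passed the test without UO126 replicate 2 (-0.22, edgeR adjusted p = 0.034). The log2 ratio of Map2k1 to Map2k2 averaged -1.73 with afatinib, -1.78 with UO126, -1.81 with DMSO and -1.79 in the empty vector, a range narrower than the gap between the UO126 libraries, -1.63 and -1.92.

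Mapk3 encodes ERK1, the last kinase of the cascade. Its counts were 1282 and 1305.5 with afatinib, 1144 and 1186.5 with UO126 and 898 and 855 with DMSO, against 974 and 934.5 in the empty vector. Scaled for library size these were 62.4 and 59.9 CPM, 51.1 and 54.7 CPM, 48.9 and 48.6 CPM, and 42.2 and 45.3 CPM in the same order of groups. None of the 4 groups overlapped another, and their order was afatinib, UO126, DMSO and empty vector.

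With afatinib Mapk3 rose by 0.33 ± 0.072 against DMSO, or 25.5% (edgeR adjusted p = 0.0024, 95% interval 0.17 to 0.48), and the call was made in each of the 19 alternatives, with values between 0.32 and 0.40. Mapk3 has the shortest transcript of the 7 genes, 1761 bases, and lies in the class whose median fell by 0.11 on the log2 scale with afatinib. With UO126 the change was 0.12 ± 0.072 (edgeR adjusted p = 0.25, 95% interval -0.038 to 0.27), and with c-Fos it was 0.16 ± 0.073 (edgeR adjusted p = 0.10), which passed without UO126 replicate 2 (0.18, edgeR adjusted p = 0.039). The difference between the inhibitors was tested directly: afatinib exceeded UO126 by 0.21 ± 0.071, which did not pass (edgeR adjusted p = 0.066). It passed without UO126 replicate 2 (0.26, edgeR adjusted p = 0.032) and with transcript length offsets (0.25, edgeR adjusted p = 0.016).

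Between afatinib and UO126, 0 of the 7 genes were called by edgeR in either direction, against 7.14% of all genes higher and 7.14% lower with afatinib, and the DESeq2 Wald test also called 0. Before adjustment 2 members had p under 0.05 in edgeR's fit, Mapk3 with 0.011 and Araf with 0.020. Araf differed by -0.21 ± 0.080 (edgeR adjusted p = 0.099) and was called without UO126 replicate 1 (-0.28, edgeR adjusted p = 0.029). Of the other members, Map2k1 differed by 0.12 (95% interval -0.033 to 0.27), Nras by -0.075 (-0.22 to 0.068), Map2k2 by 0.067 (-0.11 to 0.24), Braf by -0.019 (-0.21 to 0.17) and Hras by 0.0032 (-0.14 to 0.15).

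Set against the empty vector, the cascade genes of inhibitor-treated c-Fos cells stood above it more often than below. With afatinib 4 of 7 were higher and 0 lower, against 21.7% and 23.4% of all genes, and with UO126 3 of 7 were higher and 0 lower, against 18.3% and 19.4%. Both comparisons share the empty-vector libraries with the c-Fos comparison. Hras was higher by 0.22 with afatinib (edgeR adjusted p = 0.016) and by 0.22 with UO126 (edgeR adjusted p = 0.021), Nras by 0.20 (edgeR adjusted p = 0.023) and 0.28 (edgeR adjusted p = 0.0047), and Mapk3 by 0.48 (edgeR adjusted p = 1.0e-04) and 0.27 (edgeR adjusted p = 0.0085). Map2k1 was higher by 0.25 with afatinib (edgeR adjusted p = 0.012), and by 0.13 with UO126, which was not called.

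These calls depended on single libraries to a varying degree. The calls of Mapk3 with afatinib and of Nras with UO126 were made whichever library was left out. Hras with afatinib lost its call without empty-vector replicate 2 (adjusted p = 0.069) or afatinib replicate 1 (0.12), and with UO126 without empty-vector replicate 1 (0.054) or 2 (0.099). Nras with afatinib lost its call without empty-vector replicate 1 (0.058) or 2 (0.078) or afatinib replicate 2 (0.12). Map2k1 with afatinib lost its call without afatinib replicate 1 (0.087), and Mapk3 with UO126 without empty-vector replicate 1 (0.066). Braf and Map2k2 were not called, at 0.17 and 0.18 with afatinib and 0.19 and 0.11 with UO126. With afatinib Braf was called without afatinib replicate 1 (adjusted p = 0.036), UO126 replicate 1 (0.021) or UO126 replicate 2 (0.021), and Map2k2 without afatinib replicate 2 (0.038), UO126 replicate 1 (0.0094) or UO126 replicate 2 (0.0085). With UO126 Map2k2 was called without UO126 replicate 1 (0.018) and Braf without UO126 replicate 2 (0.0046).

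For every member except Mapk3, the widest gap between the 2 libraries of a group was in an inhibitor group, and within afatinib its sign differed between the longest and the other transcripts. Replicate 1 minus replicate 2 of afatinib was 0.14 on the log2 CPM scale for Hras, 0.10 for Araf, 0.14 for Map2k1, 0.17 for Map2k2 and 0.060 for Mapk3, but -0.10 for Nras and -0.21 for Braf, the genes with the longest transcripts. In UO126 the signs were turned round for 6 of the 7 genes, with 0.15 for Nras, 0.21 for Braf and -0.22 for Map2k2. Map2k1, at 0.075, was the exception. The DMSO libraries differed by at most 0.079, for Braf, and the widest gap of the empty-vector libraries was -0.13, for Map2k2. Over all 12879 tested genes the Spearman correlation of this difference with transcript length, across genes that are not independent replicates, was -0.27 for afatinib, 0.11 for UO126, 0.28 for DMSO and 0.37 for the empty vector.

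**Figure D3:**
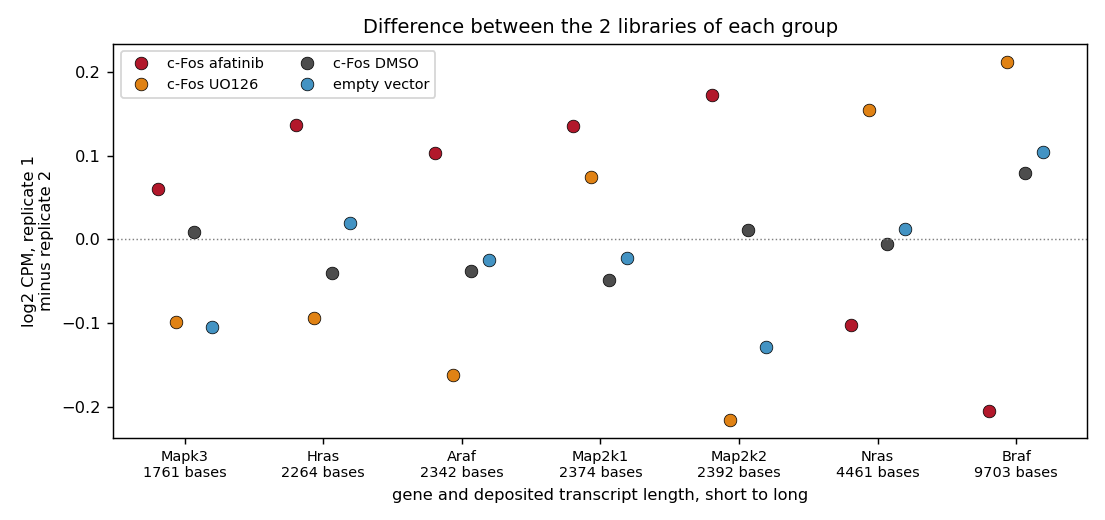
Difference in log2 CPM between replicate 1 and replicate 2 (vertical axis) of each group for the 7 genes, ordered by deposited transcript length from 1761 bases (Mapk3) to 9703 bases (Braf). The afatinib points are above 0 for the 5 shorter genes and below 0 for Nras and Braf, where the UO126 points are above 0.

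The genes around the cascade were taken from a list of 52 genes by role, of which 51 were tested. With c-Fos 19 rose and 3 fell, with a median log2 fold change of 0.18. With afatinib 14 rose and 11 fell (median -0.044), and with UO126 5 rose and 11 fell (median -0.053). Over all genes 21.5% rose and 20.7% fell with c-Fos, 21.2% rose and 21.5% fell with afatinib, and 13.9% rose and 14.7% fell with UO126. The medians over all genes were within 0.01 of 0. These shares are the background for each role group below, where several counts are near them and were not tested as groups.

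Among adaptors and exchange factors, 3 of 7 tested genes rose with c-Fos and 0 fell. With afatinib 4 rose and 1 fell, and with UO126 0 rose and 2 fell. The adaptor Shc1 had 62.3 ± 1.41 CPM with afatinib and 64.9 ± 1.42 CPM with UO126, against 84.5 ± 2.07 CPM with DMSO, falling by 0.44 and 0.38 on the log2 scale (edgeR adjusted p = 1.7e-04 and 9.7e-04). The RAS exchange factor Sos1 rose with afatinib, to 118 ± 10.4 CPM against 93.0 ± 5.07 CPM with DMSO (edgeR adjusted p = 0.0089).

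RAS GTPase-activating proteins return RAS to its inactive form, and 4 of their 6 genes fell with each inhibitor, while 0 rose. Of all genes 21.5% fell with afatinib and 14.7% with UO126. Dab2ip had 20.6 ± 1.55 CPM with afatinib and 21.3 ± 2.64 CPM with UO126, against 60.6 ± 3.58 CPM with DMSO, log2 fold changes of -1.56 and -1.51 (edgeR adjusted p = 4.0e-08 and 1.6e-07). Nf1, the gene of neurofibromin, had 73.2 ± 9.09 CPM with afatinib and 88.4 ± 0.969 CPM with UO126, against 125 ± 11.7 CPM with DMSO, log2 fold changes of -0.77 and -0.49 (edgeR adjusted p = 6.1e-05 and 0.0025). With c-Fos 2 of the 6 rose and 1 fell: Rasa2 by 0.82 and Rasal2 by 0.58 rose, and Dab2ip fell by 0.44.

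Among 6 relatives of RAS, 3 rose and 0 fell with c-Fos, against 21.5% and 20.7% of all genes. With each inhibitor 2 rose and 1 fell, against 21.2% and 21.5% of all genes with afatinib and 13.9% and 14.7% with UO126. Rras2, which encodes the RAS relative TC21, rose by 0.90 with c-Fos, to 236 ± 4.17 CPM against 126 ± 0.772 CPM in the empty vector (edgeR adjusted p = 1.9e-07), and fell by 0.35 with afatinib and by 0.34 with UO126. Mras rose by 0.77 with afatinib and 0.69 with UO126, and Rit1 by 0.62 and 0.51. Of the 4 genes that process RAS for the membrane, 0 were called with c-Fos or UO126, and Icmt, the methyltransferase of the RAS C-terminus, rose by 0.28 with afatinib (edgeR adjusted p = 0.0064).

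The counts of the next 3 groups stand against all genes, of which 21.5% rose and 20.7% fell with c-Fos. With afatinib these shares were 21.2% and 21.5%, and with UO126 13.9% and 14.7%. Among 11 scaffolds and regulators of RAF and MEK, 5 rose and 0 fell with c-Fos. In this group 1 rose and 2 fell with afatinib, and 2 rose and 1 fell with UO126. Pea15a, which binds ERK in the cytoplasm, rose by 0.85 with c-Fos, and the scaffold Iqgap1 by 0.60. The kinase chaperone Cdc37 rose by 0.32 with c-Fos and fell by 0.33 with afatinib and 0.23 with UO126. Of 10 other MAP kinase kinases and MAP kinases, 4 rose and 1 fell with c-Fos, 3 rose and 2 fell with afatinib, and 0 rose and 2 fell with UO126. Map2k3, a p38 activator, rose by 1.02 with c-Fos and fell by 0.40 with afatinib and by 0.45 with UO126. Its relative Map2k6 rose by 0.46 with c-Fos and by 0.97 with afatinib, and stood at 0.10 with UO126 (not called). Among 7 kinases activated by ERK or its relatives, 2 rose and 1 fell with c-Fos, 3 rose and 1 fell with afatinib, and 1 rose and 1 fell with UO126. Rps6ka2, an RSK kinase, rose by 0.32 with c-Fos, 0.64 with afatinib and 0.68 with UO126.

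The 10 genes listed as a transcriptional readout of ERK activity had larger median changes than the cascade genes in each main comparison. With afatinib 9 fell and 1 rose (median log2 fold change -1.51), with UO126 9 fell and 1 rose (median -1.24), and with c-Fos 8 rose and 1 fell (median 1.2). The ETS factor gene Etv5 had 0.802 ± 0.0325 CPM with afatinib and 1.02 ± 0.00867 CPM with UO126, against 20.6 ± 0.237 CPM with DMSO, log2 fold changes of -4.67 and -4.33 (edgeR adjusted p = 3.9e-10 and 2.7e-09). Dusp6, a phosphatase of ERK, had 8.90 ± 0.0129 CPM with afatinib and 15.0 ± 0.729 CPM with UO126, against 58.9 ± 4.55 CPM with DMSO, log2 fold changes of -2.73 and -1.98. Afatinib minus UO126 was -0.75 for Dusp6 (edgeR adjusted p = 4.6e-04). Of the 10 genes 4 were lower with afatinib than with UO126 and 0 were higher, against 7.14% of all genes in each direction. Epha4, an ephrin receptor, went the other way in each of the 3 comparisons: it rose by 1.04 with afatinib and 0.75 with UO126 and fell by 0.91 with c-Fos. With c-Fos Spry2, an inhibitor of receptor signalling, was not called (0.21, edgeR adjusted p = 0.22), and Dusp6 rose by 0.28. The largest absolute log2 fold change of any of the 7 cascade genes was 0.33 with afatinib, 0.20 with UO126 and 0.34 with c-Fos.

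**Figure D4:**
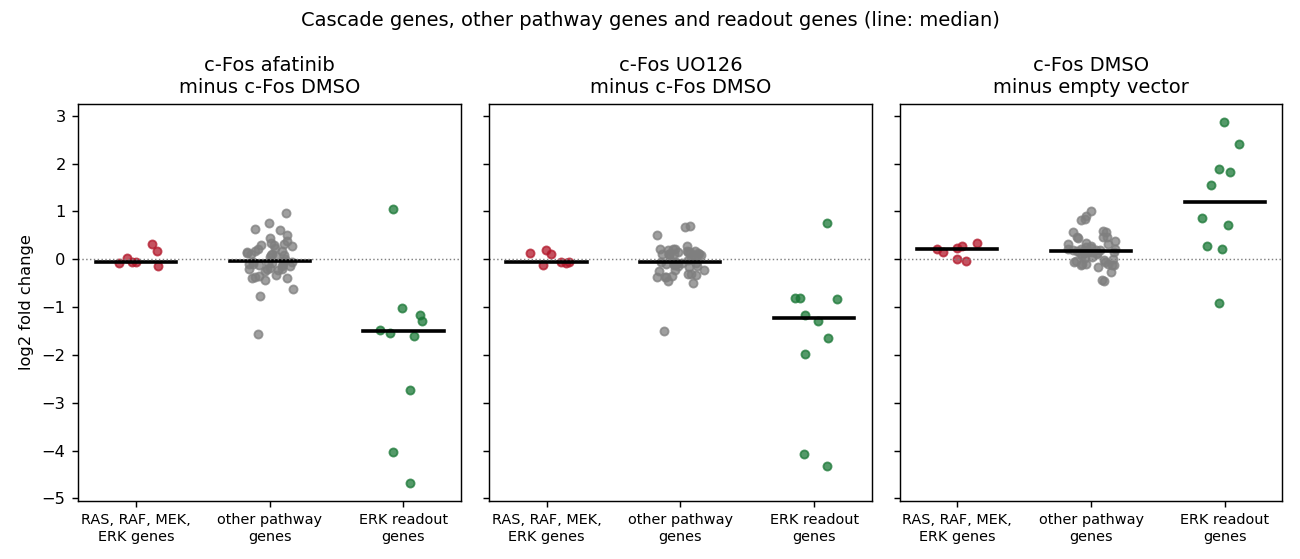
Log2 fold change (vertical axis) of the 7 cascade genes, the other pathway genes and the 10 ERK readout genes (points) with their median (line), for afatinib minus DMSO, UO126 minus DMSO and c-Fos DMSO minus empty vector. The readout medians are -1.51, -1.24 and 1.2, while the cascade genes stay between -0.13 and 0.34.

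The genes whose levels across the 8 libraries were most like each member's were found by Pearson's r of log2 CPM over 9905 genes. These r values describe 8 libraries in 4 groups and carry no test, and libraries share depth and length effects. For Nras they were Galnt1 (0.99) and Prss23 (0.99), and for Hras Ostf1 (0.98) and Get4 (0.98). Mapk3 was followed most closely by Mif4gd (0.99) and Stx2 (0.99), and 93 genes had r above 0.95 with it. Mif4gd had 132 and 122 CPM with afatinib, 108 and 112 CPM with UO126 and 97.4 and 101 CPM with DMSO, against 84.8 and 92.2 CPM in the empty vector, the same order of groups as Mapk3. Map2k1 was most like Ing1 (0.97) and Tmem234 (0.97), Map2k2 like Praf2 (0.98) and Homer3 (0.97), Araf like Amdhd2 (0.99) and Ftsj1 (0.97), and Braf like Ltn1 (0.97) and Trps1 (0.95). Only 2 genes passed an r of 0.95 with Araf and 2 with Braf, against 34 with Hras and 25 with Nras.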

How the data were processed

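RNA of 8 libraries, 2 in each of 4 groups, was compared. Per the labels' protocols, total RNA (1 µg) went into TruSeq RNA libraries, a kit without strand marking. TopHat alignments were counted by HOMER for each transcript isoform, according to the study's design text. The submitters' processing notes also list DESeq2, with no role, and the build mm9. Versions are not given in the sources used here. The deposited values are expected counts, multiples of 0.5 that are not normalized, with 1 entry per gene symbol, and were rounded to whole numbers. The authors' deposited transcript length was used for levels per kb.

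Of 24909 entries, 26 symbols that had become dates (0.218% to 0.246% of a library) were left out. Genes were kept with filterByExpr (minimum count 10, minimum total 15), scaled by TMM, and fitted with edgeR 4.0.16 in R 4.3.3 (quasi-likelihood, robust, 1 coefficient per group, 8 libraries, 4 residual degrees of freedom). P-values are two-sided and Benjamini-Hochberg adjusted over 12879 genes, and a gene was called under 0.05. Intervals are 95% intervals of the fit. The common biological coefficient of variation was 0.060. The fit was also run on simulated counts, drawn with no transcript length effect and with the same spread in every group. That run therefore does not cover these features of the data, and no result here rests on it.

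The members and gene lists were chosen with earlier results of these data known. All 7 members are named in every comparison. From each role group, up to 3 genes called in a main comparison and reaching a mean of 5 CPM in either group are named by size of change, and Rasal2, Epha4, Spry2 and the values of genes in further comparisons were added after their values were seen. For each member the 2 genes with the highest r of log2 CPM (prior count 2) are named. Promoters came from the RefSeq table for GRCm38.p6 (6 of 7 members matched) and coding sequences and overlaps from GENCODE M21, and no coordinates of the files' own build were used. Alternatives were another scaling, the DESeq2 1.42.0 Wald test, other low-count filters, fewer libraries, a replicate block, non-robust fitting and Rn45s left out, plus 3 added after seeing the data: crossed replicate numbers, the Rn45s share as a covariate and transcript length offsets.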

Additional observations from a re-analysis of the deposited data

How the results depend on the processing

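Over 19 alternatives, 0 of 228 values of called member changes turned round and 20 lost the call, while of 570 values of changes not called 24 turned round and 35 passed. The cause was not tested. By setting, DESeq2 size factors gave Braf 0.0098 with c-Fos, and so did the DESeq2 Wald test, with Map2k1 at 0.23 (not called). Without a low-count filter Map2k1 was 0.20 with c-Fos (not called) and Map2k2 0.18 for afatinib minus empty vector (called). At 5 CPM or more in 2 libraries Map2k2 was 0.22 with c-Fos (not called). With only the libraries compared, Braf was 0.18 for afatinib minus DMSO and 0.20 for afatinib minus empty vector. Map2k2 was 0.20 for afatinib minus empty vector, and all of these were called. The genes called between afatinib and UO126 were then 481 higher and 505 lower, against 919 and 920.

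Same-numbered libraries of 2 groups correlated between -0.21 and 0.12 in their deviations, with no common sign. These values cannot exclude a shared culture or batch, since differences between libraries also varied with transcript length. With a replicate block Map2k2 was 0.23 with c-Fos (not called) and no other member call changed. With the afatinib numbers crossed, Braf was 0.18 for afatinib minus DMSO and 0.19 for UO126 minus DMSO. Against the empty vector Braf was 0.17 with afatinib and 0.19 with UO126. Mapk3 was 0.21 for afatinib minus UO126 and Map2k2 0.18 for afatinib minus empty vector. All of these were called. With the Rn45s share as covariate, Araf was 0.0017 and Mapk3 0.18 (called) with c-Fos, and Braf was 0.20 (called) for afatinib minus DMSO. Map2k2 was 0.21 and 0.20 (both called) for afatinib and UO126 minus empty vector. Afatinib minus UO126 was then -0.028 for Hras, 0.036 for Braf and -0.25 for Araf (called). Over all genes 1383 were called higher in that comparison, against 919 in the main analysis. With transcript length offsets Braf was 0.14 with c-Fos and -0.017 for afatinib minus DMSO, and Nras was -0.20 for afatinib minus DMSO (called). Mapk3 was 0.25 for afatinib minus UO126 (called). Map2k2 was 0.21 for afatinib minus empty vector and Braf 0.23 for UO126 minus empty vector (both called). The last 3 settings were chosen after seeing the data.

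The ranges below are of log2 fold changes only. Leaving out 1 library at a time assumes that a lone library varies like the other groups. For c-Fos minus empty vector the log2 fold changes then ranged from 0.25 to 0.31 for Hras, -0.059 to 0.0011 for Araf, -0.053 to 0.074 for Braf, 0.19 to 0.26 for Map2k1, 0.19 to 0.29 for Map2k2 and 0.13 to 0.21 for Mapk3, with 1 to 5 members higher and 1661 to 3085 genes lower. For afatinib minus DMSO they ranged from -0.096 to 0.041 for Hras, 0.093 to 0.30 for Braf, -0.013 to 0.12 for Map2k1 and -0.12 to 0.057 for Map2k2, with 1 to 2 members higher and 1692 to 3205 genes lower. For UO126 minus DMSO they ranged from -0.095 to 0.011 for Hras, -0.12 to 0.020 for Nras, 0.10 to 0.30 for Braf and -0.22 to 0.0041 for Map2k2, with 0 to 1 members higher, 0 to 1 lower, 913 to 2051 genes higher and 968 to 2063 lower. For afatinib minus UO126 they ranged from -0.055 to 0.080 for Hras, -0.15 to 0.0098 for Nras, -0.28 to -0.13 for Araf, -0.12 to 0.097 for Braf, -0.031 to 0.18 for Map2k2 and 0.17 to 0.26 for Mapk3, with 0 to 1 members higher, 0 to 1 lower, 391 to 1316 genes higher and 307 to 1102 lower. For afatinib minus empty vector they ranged from 0.17 to 0.31 for Hras, 0.18 to 0.28 for Nras, 0.092 to 0.30 for Braf, 0.20 to 0.34 for Map2k1 and 0.11 to 0.29 for Map2k2, with 2 to 6 members higher and 1953 to 3232 genes lower. For UO126 minus empty vector they ranged from 0.20 to 0.28 for Hras, 0.10 to 0.32 for Braf, 0.028 to 0.23 for Map2k2 and 0.25 to 0.34 for Mapk3, with 1 to 4 members higher and 1476 to 2452 genes lower.

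With 2 libraries a group the standard error of a member's change was 0.066 to 0.089 on the log2 scale, and the smallest member change called in the main analysis was 0.20.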
